A study of Mus musculus with 74 samples.

Results

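The data described here are the RNA levels of 10 genes of the integrated stress response and the unfolded protein response in mouse dorsal root ganglia (DRG), the clusters of sensory neuron cell bodies beside the spinal cord. The genes were taken by name from the deposited count files (Atf4, Xbp1, Ddit3, Trib3, Asns, Chac1, Sesn2, Atf5, Ppp1r15a and Atf6), and all 10 were found among the 53379 genes counted. The whole DRG experiment held 4 uninjured and 4 spinal cord injured (SCI) wild type C57BL/6 female mice of 10-12 weeks, whose L4 ganglia were taken 1 day (1d) after the injury. In the FACS experiment, YFP+ cells were sorted from L4 ganglia of 22 female mice of 10-20 weeks, whose strain is labelled Thy1YFP16 (their genotype labels number upward from that name from well to well), 6 of them naive and 4 each at 1d or 3d after SCI or sciatic nerve injury (SNI). SCI was a dorsal hemisection at T9/10, which cuts the central axon branch, and SNI was a crush of the sciatic nerve, which damages the peripheral branch.

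Several features limit these groups as models. The YFP transgene is driven by Thy1 regulatory sequence and marks only some of the sensory neurons, and the sort took YFP+ cells after enzymatic dissociation, a step that the naive mice underwent too. All mice were female. Each FACS mouse gave 3 wells of about 100 cells, which are technical replicates and were summed to 1 value per mouse. The sets, called here FACS (naive replicates 1 to 4, injured replicates 1 and 2) and FACS2018 (naive replicates 5 and 6, injured replicates 3 and 4), are the ones that the library names give. Reads on genes ranged from 21959030 to 44493319 per whole DRG library and from 30518187 to 83599972 per FACS mouse, while single wells ranged from 1494217 to 49015375. The mice were labelled as separate animals, so the p-values below measure the spread between mice.

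In the integrated stress response, kinases that sense amino acid shortage, haem shortage, double-stranded RNA or unfolded protein phosphorylate the translation factor eIF2, which slows general translation while favouring translation of the Atf4 mRNA. ATF4 then drives genes of amino acid synthesis and redox balance, and with prolonged stress it induces Ddit3 (CHOP). The unfolded protein response of the endoplasmic reticulum (ER) has further arms, in which IRE1 splices the Xbp1 mRNA and ATF6 is cut at the Golgi, and both products drive ER chaperones and ER-associated degradation. In sensory neurons after axon injury, ATF3, a relative of ATF4, is a widely used marker of the injured state. Gene-level counts show neither eIF2 phosphorylation, nor ATF4 protein, nor Xbp1 splicing, so the values here are of total mRNA only.

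Short stretches of promoter are shown because they hold the letters by which ATF4 and the ER stress factors are known to act, in genes whose values are given below. RefSeq windows (build GRCm38.p6) of 300 bases, from 250 before to 50 after each gene's start, matched 9 of the 10 genes. The letters TGATGNAA of the CEBP-ATF response element were searched on both strands and stood in 1304 of 32851 windows (3.97%), among them those of Asns, Chac1 and Trib3. The ER stress response element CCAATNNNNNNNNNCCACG, also searched on both strands, stood in 39 windows (0.119%), in none of the 9 matched genes, but in those of Calr and Hspa5. The stretches below read 5′ to 3′ on the gene's strand with the match in capitals, and where a stretch overlaps an annotated exon only up to 30 bases are given.
Asns: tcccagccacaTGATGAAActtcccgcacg
Chac1: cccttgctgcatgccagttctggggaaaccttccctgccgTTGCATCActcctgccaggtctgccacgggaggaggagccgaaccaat
Trib3: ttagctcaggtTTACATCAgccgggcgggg
Atf3: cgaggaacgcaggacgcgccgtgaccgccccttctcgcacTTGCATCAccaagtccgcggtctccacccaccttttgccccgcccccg
Calr: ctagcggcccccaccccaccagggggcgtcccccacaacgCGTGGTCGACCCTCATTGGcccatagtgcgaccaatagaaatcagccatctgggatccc
Hspa5: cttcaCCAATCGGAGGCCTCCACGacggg
Counted from the annotated start, the matches lay at -23 to -16 in Asns (chr6:7693214-7693243, minus strand), at -193 to -186 in Chac1 (chr2:119351009-119351096, plus strand) and at 15 to 22 in Trib3 (chr2:152344028-152344057, minus strand). The match lay at -110 to -103 in Atf3 (chr1:191183396-191183483, minus strand, inside the gene body of a longer Atf3 transcript), at -162 to -144 in Calr (chr8:84847035-84847133, minus strand) and at -65 to -47 in Hspa5 (chr2:34772020-34772048, plus strand). The stretches of Asns, Trib3 and Hspa5 overlapped an annotated exon of their own gene. Match positions count from the RefSeq start, which in these genes differs from the start of the GENCODE gene span printed further on. Of the pathway genes listed further on, 15 of the 90 with a matched window held the first element and 9 of 90 the second. A match of letters is a description of the window and not evidence of binding.

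Markers did not match the label in every sorted well. In 20 of 66 wells, reads of 9 neuron markers made up a smaller share (0.00913 to 2.16%) than reads of glial markers (3.18 to 14.2%), while in the other 46 wells, called neuron-rich here, the glial share was 0.166 to 1.28% and the neuron share 1.40 to 4.55%. These glia-rich wells were 6 of the 18 naive wells, 3 of 12 at SCI 1d, 4 of 12 at SCI 3d, 3 of 12 at SNI 1d and 4 of 12 at SNI 3d. Replicate 3 of SNI 3d and replicate 3 of SCI 3d had glia-rich wells only. FACS results are therefore given with all wells, and the main ones again without the glia-rich wells (20 mice). Leaving out the RUVr factors as well, which are estimates of unwanted variation fitted beside the groups, was added after the data were seen.

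Whole DRG at 1d after SCI was compared with uninjured whole DRG to ask whether an injury of the central branch changed these genes in the ganglion as a whole. None of the 10 genes was differentially expressed (DE, adjusted p under 0.1 by edgeR's quasi-likelihood test), against 2.32% of the 17616 genes tested. None had an unadjusted p under 0.05 either, beside 14.6% of all genes, and none was called by DESeq2, which called 5.27% of all genes. Of the 10, 6 were nominally higher and 4 lower, with a median log2 fold change of 0.02 (0.01 over all genes tested). No gene had all 4 SCI mice above or all 4 below the uninjured mice, which 4.92% and 6.07% of all genes had. In whole DRG a lower value can mean fewer cells of a type or less RNA per cell, and these cannot be told apart. All levels are CPM, the read count of a gene relative to the library's total on genes, scaled by TMM, a method that evens out differences in library composition, except that levels of single wells and summed markers over all wells are relative to the total alone.

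Among the transcription factors, Atf4 (ENSMUSG00000042406.7, chr15:80255184-80257541, plus strand) encodes the factor that carries the integrated stress response. Its level was 133, 160.3, 186 and 180.0 CPM in uninjured DRG and 146, 147, 128 and 155 CPM after SCI (log2 fold change -0.20, 95% interval -0.43 to 0.04, adjusted p = 0.43). The lowest uninjured library lay inside the SCI range, and the other 3 uninjured libraries lay above every SCI library. Xbp1 (ENSMUSG00000020484.18, chr11:5520659-5525893, plus strand), the factor of the IRE1 arm, was at 71.1, 82.3, 76.9 and 81.1 CPM in uninjured DRG and at 84.0, 80.9, 89.6 and 87.4 CPM after SCI (log2 fold change 0.13, 95% interval -0.02 to 0.28, adjusted p = 0.40). It had the lowest adjusted p of the 10, and 3 of its 4 SCI libraries lay above all uninjured libraries. Atf6 (ENSMUSG00000026663.6, chr1:170704674-170867771, minus strand), the ER membrane factor, was the steadiest of the 10, at 80.3, 75.8, 79.3 and 77.9 CPM in uninjured DRG and 73.2, 71.4, 83.5 and 74.5 CPM after SCI (log2 fold change -0.05, 95% interval -0.20 to 0.10, adjusted p = 0.78), with a coefficient of variation of 5.20% over the 8 libraries.

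Ddit3 (ENSMUSG00000025408.15, chr10:127290774-127296288, plus strand) encodes CHOP, a factor tied to cell death under lasting ER stress. It was at 24.1, 28.2, 26.1 and 26.4 CPM in uninjured DRG and at 30.5, 26.7, 24.2 and 28.4 CPM after SCI (log2 fold change 0.06, 95% interval -0.13 to 0.26, adjusted p = 0.79), and the SCI range contained nearly all of the uninjured range. Atf5 (ENSMUSG00000038539.15, chr7:44812256-44816658, minus strand), a relative of Atf4 whose translation is also favoured when eIF2 is phosphorylated, was at 55.0, 42.3, 43.5 and 48.3 CPM and 47.7, 43.0, 35.9 and 46.7 CPM respectively (log2 fold change -0.13, 95% interval -0.37 to 0.12, adjusted p = 0.65). In both, the groups overlapped. Ddit3 overlaps Mars on the other strand, and Atf5 overlaps Il4i1 and Nup62. Whether the counting used strand is not given in the sources used here, so some reads could belong to those neighbours.

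The feedback genes were as even. Ppp1r15a (ENSMUSG00000040435.12, chr7:45522916-45526268, minus strand) encodes GADD34, which directs a phosphatase to eIF2 and so ends the response. It was at 24.8, 25.3, 24.5 and 25.3 CPM in uninjured DRG and at 28.7, 23.4, 25.8 and 24.2 CPM after SCI (log2 fold change 0.03, 95% interval -0.14 to 0.21, adjusted p = 0.89). The 4 uninjured libraries lay within the span of the 4 SCI libraries. Trib3 (ENSMUSG00000032715.9, chr2:152337422-152344032, minus strand), a pseudokinase that binds ATF4 and CHOP, was at 3.46, 2.86, 3.37 and 3.78 CPM and 2.76, 3.28, 2.69 and 3.33 CPM (log2 fold change -0.16, 95% interval -0.46 to 0.14, adjusted p = 0.63), a level at which 1 library could shift a mean. Ppp1r15a overlaps Tulp2 on the other strand.

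Among the targets, Asns (ENSMUSG00000029752.12, chr6:7675169-7693254, minus strand) encodes asparagine synthetase and is a textbook ATF4 target. It was at 141, 187, 188 and 201 CPM in uninjured DRG and at 202, 197, 176 and 214 CPM after SCI (log2 fold change 0.14, 95% interval -0.10 to 0.37, adjusted p = 0.60). The lowest value belonged to uninjured replicate 1, and the other 3 uninjured libraries fell inside the SCI range. Chac1 (ENSMUSG00000027313.3, chr2:119351229-119354381, plus strand), which degrades glutathione, was at 5.29, 6.26, 6.14 and 6.11 CPM and 8.14, 6.46, 5.63 and 6.66 CPM (log2 fold change 0.17, 95% interval -0.11 to 0.45, adjusted p = 0.59). Sesn2 (ENSMUSG00000028893.8, chr4:132492032-132510501, minus strand), a leucine-binding inhibitor of mTORC1 signalling, was at 6.55, 4.95, 4.86 and 4.62 CPM and 5.28, 4.74, 6.55 and 4.18 CPM (log2 fold change 0.01, 95% interval -0.35 to 0.36, adjusted p = 0.99). In Chac1, 3 SCI libraries lay above all uninjured libraries and the other lay inside their range, while in Sesn2 the groups covered nearly the same span.

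**Figure D1:**
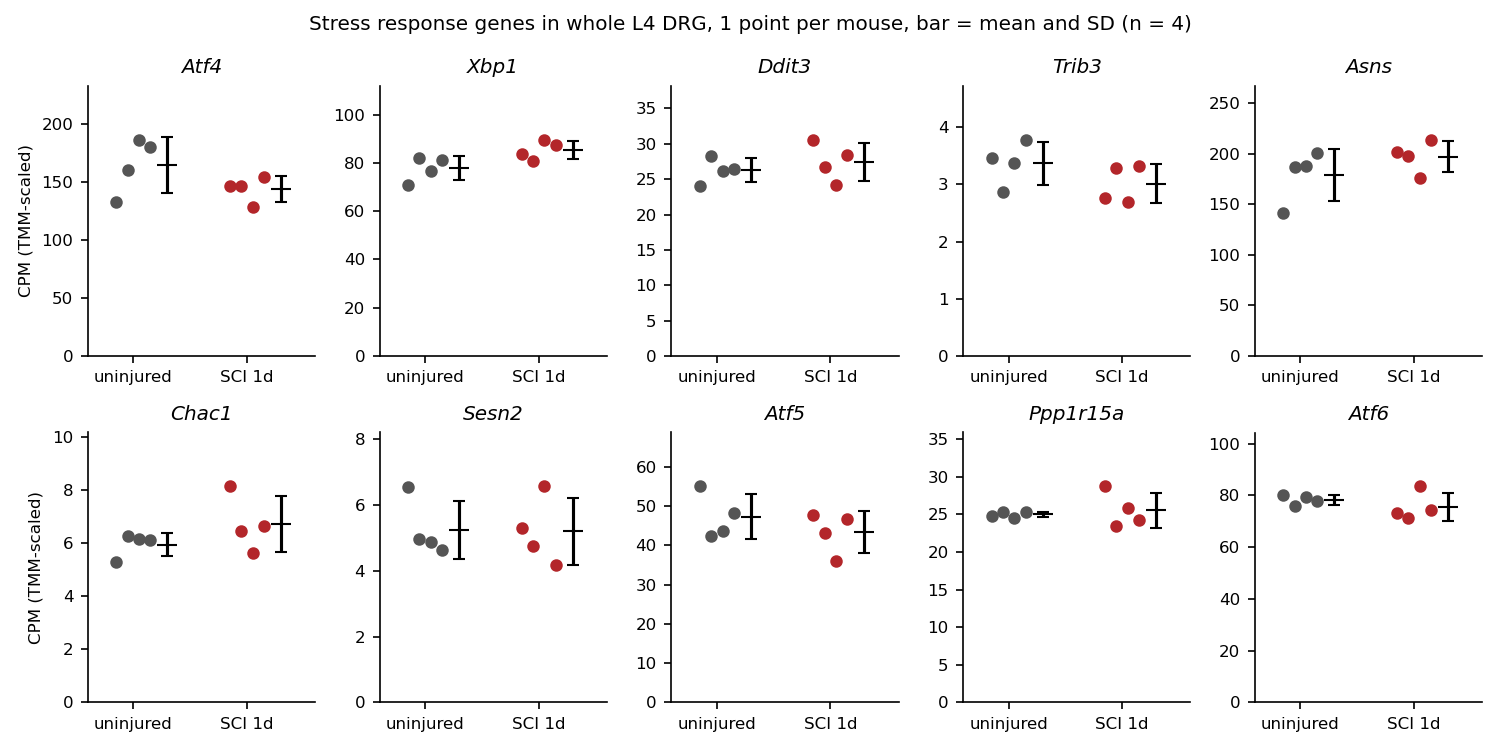
CPM (y axis) of the 10 genes in each of the 4 uninjured and 4 SCI 1d whole DRG libraries, with 1 panel per gene. Points are mice and bars are means with SD, and in every panel the groups overlap.

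Per kilobase of exon, the level of a gene can be set against that of another. In whole DRG, the median level over the 8 libraries was highest for Asns (70.4 CPM per kb) and Atf4 (63.9), which overlapped each other (ranges 51.7 to 78.1 and 54.5 to 79.1). Xbp1 (25.1) and Atf5 (22.6) came next and also overlapped, followed by Ddit3 (15.5), which lay below both. Ppp1r15a (8.51) and Atf6 (8.32) did not differ beyond their spread, and the lowest levels were those of Chac1 (3.79), Trib3 (1.56) and Sesn2 (1.41).

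Around these 10 genes, 118 further genes of the pathway were followed in 9 lists, of which 116 passed the count filter in whole DRG. At SCI 1d, 3 were called higher and 1 lower, beside 2.32% of all genes called in either direction. The glutamine transporter Slc1a5 (ENSMUSG00000001918.17, chr7:16781340-16798274, plus strand) was at 46.8, 42.9, 46.5 and 44.9 CPM in uninjured DRG and rose to 56.7, 63.3, 60.7 and 54.4 CPM after SCI (log2 fold change 0.38, SE 0.07, adjusted p = 0.035). The pro-apoptotic gene Pmaip1 (NOXA) was at 1.68, 2.03, 1.78 and 2.36 CPM and rose to 4.98, 3.25, 3.27 and 3.78 CPM (log2 fold change 0.95, SE 0.18, adjusted p = 0.036). In both, all 4 SCI libraries lay above all 4 uninjured libraries. Atf3, the injury marker, rose by 2.39 on the log2 scale (adjusted p = 0.0043). The ER chaperone calreticulin, Calr (ENSMUSG00000003814.8, chr8:84841850-84846934, minus strand), went the other way, from 494, 405, 402 and 390.1 CPM in uninjured DRG to 325, 334, 285 and 348 CPM after SCI (log2 fold change -0.39, SE 0.09, adjusted p = 0.078), again with no overlap.

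Most members of the same lists were not called, and 19 of the 116 (16.4%) had an unadjusted edgeR p under 0.05, beside 14.6% of all genes. Slc1a5 was the only called gene of 19 in the list of amino acid synthesis and transport, whose median log2 fold change was 0.07. Atf3 and Pmaip1 were 2 of the 13 tested ATF4 and CHOP-type regulators and secreted factors (median 0.20), the list with the highest median. Calr was 1 of 19 ER chaperones and folding enzymes (median -0.09), and Hspa5 (BiP), the chaperone that keeps the ER sensors inactive, had a log2 fold change of -0.11 (SE 0.07, adjusted p = 0.52). Nothing was called among eIF2 kinases and machinery (14 genes, median -0.03), where the nearest were Eif2b3 at 0.20 (adjusted p = 0.36) and Eif2ak4 at -0.17 (adjusted p = 0.37). The same held for the 13 genes of tRNA charging, which are aminoacyl tRNA synthetases and the tRNA exportin Xpot (median -0.02, with Eprs at -0.08 and Iars at 0.09) and for ER-associated degradation (15 genes, median 0.01), where Erlec1 was at 0.37 (adjusted p = 0.19) and Edem3 at -0.10. No gene was called in ER translocation and export (11 genes, median -0.02), with Ssr3 at 0.22 (adjusted p = 0.19) and Sec23b at -0.13. The same was true of the membrane bZIP factors and their proteases (7 genes, median 0.06), with Atf6b at -0.27 (adjusted p = 0.15) and Creb3l2 at 0.23, and of mitochondrial protein folding (5 genes, median -0.13), with Hspd1 at -0.24 and Lonp1 at -0.15. DESeq2 called 7 list genes higher and 3 lower (8.62% in all), beside 5.27% of all genes by the same tool.

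Other cell markers moved with the same contrast. The summed level of 8 macrophage markers (most abundant Lyz2) was 69.3 to 94.1 CPM in uninjured DRG and 98.3 to 116 CPM after SCI, although none of the 8 was called higher and Cx3cr1 was called lower. That of 5 red blood cell genes (most abundant Hbb-bs) was 13.3 to 20.8 and 20.6 to 90.0 CPM, with 4 of the 5 called higher. Of 8 early response genes, summing to 146 to 181 and 215 to 238 CPM, Jun and Dusp1 were called higher. The fibroblast marker Lum was called lower. Summed neuron markers overlapped between groups (20891 to 22932 and 20736 to 22067 CPM). Their part in the changes of Slc1a5, Pmaip1, Atf3 and Calr was not tested.

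In the FACS experiment, sorted samples labelled as dorsal column neurons were compared with naive ones after each injury, and SNI was compared with SCI at each time. None of the 10 genes was DE by edgeR in any of these 6 comparisons. At an unadjusted p under 0.05 there were 1 at SNI 1d, 1 at SNI 3d and 2 at SCI 1d, with none at SCI 3d, 1 in SNI against SCI at 1d and none at 3d. Over all genes the shares at the same p were 14.97%, 12.7%, 12.7%, 9.39%, 10.2% and 8.47% in this order, so 1 of 10 is near the background. DESeq2 called Xbp1 at SNI 1d, beside 6.95% of all genes by the same tool, and Atf4 at SCI 1d, beside 5.31%, which is 1 of the 10 genes in each. It called no member at SNI 3d (9.96% of all genes), at SCI 3d (5.43%) or between SNI and SCI at 1d (4.81%) and 3d (4.21%). By edgeR, over all 23507 genes tested, 0.685% were DE at SNI 1d, 0.706% at SNI 3d, 0.017% at SCI 1d and 0% at SCI 3d, and 0% in SNI against SCI at 1d and 0% at 3d. The median log2 fold change of the 10 genes was 0.52 at SNI 1d (0.17 over all genes), 0.00 at SNI 3d (-0.01), 0.38 at SCI 1d (0.18) and 0.22 at SCI 3d (0.01). These 4 comparisons share the same 6 naive mice. Without the glia-rich wells the medians were 0.74 (0.40 over all genes), 0.40 (0.39), 0.48 (0.38) and 0.45 (0.31). In that setting 3 of the 10 had an unadjusted p under 0.05 at SNI 1d (22.8% of all genes) and 2 in SNI against SCI at 1d (13.3%), with none in the other 4 comparisons. The fit, which holds the RUVr factors, put 10 of 10 nominally higher at SNI 1d. Mean levels in the same wells were nevertheless lower than naive for Ddit3 (34.1 against 41.4 CPM) and Chac1 (3.98 against 6.35 CPM). Without the RUVr factors the median over all genes there was -0.05. In no comparison did every injured mouse lie above or below every naive mouse for any of the 10. Over all genes, the share lying wholly above was 1.3% at SNI 1d, 0.961% at SNI 3d, 0.362% at SCI 1d and 0.264% at SCI 3d, and the share lying wholly below was 0.417%, 0.311%, 0.213% and 0.0681%.

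The FACS data were far less precise for these genes than whole DRG. Over the 10 genes, 95% intervals had a median width of 0.47 log2 units for whole DRG and of 2.25 to 2.57 log2 units for FACS, and the biological coefficient of variation common to all genes was 0.133 and 1.196. The coefficient of variation of a gene over all mice ran from 32.6% (Atf6) to 294% (Sesn2). A change of 2-fold in the sorted samples would thus often not have been detectable, and an uncalled gene is not shown to be unchanged.

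Xbp1 came closest to the threshold. In the naive mice it ranged from 8.68 to 38.1 (median 14.98) CPM. The 4 mice of each injured group were at 36.3, 18.4, 149 and 46.9 CPM at SNI 1d, at 37.0, 22.3, 122 and 46.7 CPM at SNI 3d, at 18.3, 35.1, 9.05 and 26.5 CPM at SCI 1d and at 19.0, 24.3, 113 and 41.7 CPM at SCI 3d. The highest value in each of SNI 1d, SNI 3d and SCI 3d was that of replicate 3, and the naive range overlapped every injured group. The log2 fold change was 1.70 at SNI 1d (95% interval 0.46 to 2.94, unadjusted edgeR p = 0.0098, adjusted p = 0.20), and 1.27 (adjusted p = 0.38) at SNI 3d. It was 0.29 (adjusted p = 0.93) at SCI 1d and 1.07 (adjusted p = 0.59) at SCI 3d. SNI 1d was above SCI 1d by 1.41 (adjusted p = 0.48). Leaving out replicate 3 of the injured group gave 0.91 at SNI 1d, 0.78 at SNI 3d and 0.58 at SCI 3d against naive, and leaving out that of SNI 1d gave 0.61 for SNI 1d against SCI 1d. Within the FACS set the 2 SNI 1d mice (36.3 and 18.4 CPM) lay inside the naive span of 8.68 to 38.1 CPM. In FACS2018 they (149 and 46.9 CPM) lay above both naive mice (10.5 and 11.3 CPM). With the set as a covariate in place of the RUVr factors the value was 1.40 (adjusted p = 0.59). Without the glia-rich wells Xbp1 passed the threshold at SNI 1d (1.87, adjusted p = 0.064), beside 8.17% of 22620 genes, but not when the RUVr factors were also left out (1.78, adjusted p = 0.26).

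Atf4 itself had a nominally lower level at SCI 1d. Naive mice ranged from 51.5 to 228 (median 86.7) CPM. Injured mice were at 59.3, 62.2, 136 and 49.2 CPM at SNI 1d, 54.6, 64.2, 199.9 and 73.7 CPM at SNI 3d, 53.7, 77.3, 39.6 and 40.5 CPM at SCI 1d and 60.1, 49.7, 148 and 99.7 CPM at SCI 3d. The highest naive values were those of replicates 5 and 6, which were also the naive mice with the highest glial sums (44089 and 73231 CPM), and the highest value of each of SNI 1d, SNI 3d and SCI 3d was that of replicate 3. In the neuron-rich wells alone, naive mice still ranged from 17.0 to 234 (median 66.7) CPM and SCI 1d mice from 43.2 to 57.5 CPM. The part of the glia-rich wells was not tested. At SCI 1d the log2 fold change was -0.86 (95% interval -1.51 to -0.20, unadjusted edgeR p = 0.013, adjusted p = 0.28). Within the FACS set the SCI 1d mice (53.7 and 77.3 CPM) fell inside the naive span of 51.5 to 95.8 CPM, whereas in FACS2018 they (39.6 and 40.5 CPM) fell below both naive mice (228 and 194 CPM). Without the glia-rich wells the value was -0.33 (adjusted p = 0.50), in a fit whose median over all genes was 0.38. With the RUVr factors left out too it was -0.76 (edgeR adjusted p = 0.63).

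The targets and feedback genes gave no call either. Asns ranged from 77.9 to 460.2 (median 359) CPM in naive mice, was at 427, 255, 519 and 439.7 CPM at SNI 1d and 507, 333, 652 and 472 CPM at SNI 3d, and at 251, 439.5, 536 and 609 CPM at SCI 1d and 371, 474, 41.1 and 527 CPM at SCI 3d. The low values were those of naive replicate 6 and of replicate 3 of SCI 3d, and all other mice lay between 251 and 652 CPM. The highest of them was replicate 3 of SNI 3d, which also had glia-rich wells only. Ppp1r15a ranged from 22.6 to 97.0 (median 40.2) CPM in naive mice and reached 813 CPM in replicate 3 of SCI 3d and 513 CPM in replicate 3 of SNI 3d, the mice with glia-rich wells only. Other cell types marked the former too. Replicate 3 of SCI 3d had 45410 CPM of fibroblast markers (4 genes, most abundant Dcn), 3614 CPM of macrophage markers (most abundant Lyz2) and 38704 CPM of glial markers, while replicate 3 of SNI 3d had 142, 167 and 80612 CPM, and their part in these values was not tested. For Ppp1r15a the lowest p was at SCI 1d, with a log2 fold change of 1.08 (adjusted p = 0.36). Ddit3 followed the same outline, with replicate 3 of SCI 3d at 153 CPM and of SNI 3d at 161 CPM, and a log2 fold change of 0.95 (adjusted p = 0.41) at SCI 1d. Atf5 had a log2 fold change of 1.84 (adjusted p = 0.41) at SCI 1d, from levels between 0.0780 and 6.50 CPM over all FACS mice. Trib3 had no reads in 8 of the 22 mice, so its folds rest on few reads. Chac1 was at 4.73 to 12.8 CPM in naive replicates 1 to 4 and at 0 and 0.0520 CPM in replicates 5 and 6, and ranged from 0.0460 to 6.32 CPM in the injured mice. Without the glia-rich wells the value at SCI 1d was 0.75 for Ppp1r15a (adjusted p = 0.36), 0.57 for Ddit3 (adjusted p = 0.33), 1.97 for Atf5 (adjusted p = 0.37) and 0.39 for Asns (adjusted p = 0.39). With the RUVr factors left out too, Ddit3 was at 0.30 and Atf5 at 0.92. Over the alternatives that kept every mouse or left out only the glia-rich wells, Ddit3 ran from 0.30 to 1.70 at SCI 1d and Atf5 from 0.92 to 1.97. Leaving out each mouse in turn kept Ddit3 inside its range, while the highest Atf5 value then lay above its range. In the neuron-rich wells Asns was at 460 ± 146 CPM in naive mice (n = 6), 534 ± 173 CPM at SNI 1d (n = 4), 481 ± 127 CPM at SNI 3d (n = 3), 575 ± 183 CPM at SCI 1d (n = 4) and 531 ± 161 CPM at SCI 3d (n = 3). In these wells the injured and naive ranges overlapped for Asns, Ppp1r15a, Ddit3, Atf5, Trib3 and Chac1 in each injured group.

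**Figure D2:**
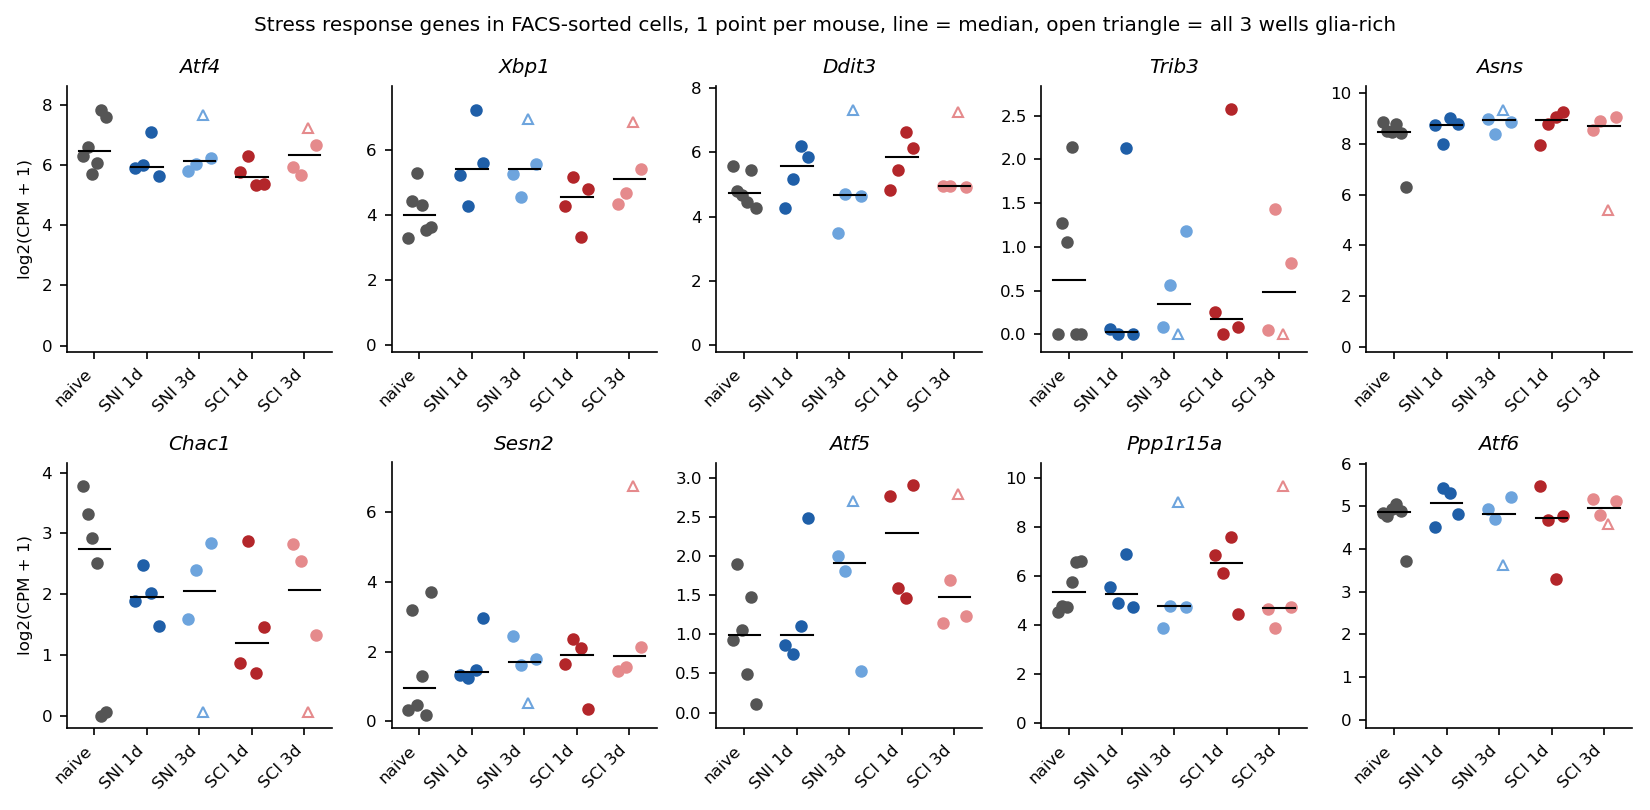
Level of the 10 genes as log2(CPM + 1) on the y axis in each FACS mouse, with 1 panel per gene, the 5 groups along the x axis, lines at the group medians and open triangles for the mice whose 3 wells were all glia-rich. The highest Ppp1r15a points (813 and 513 CPM) and the lowest Asns points (41.1 and 77.9 CPM) belong to mice with mostly or only glia-rich wells.

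**Figure D3:**
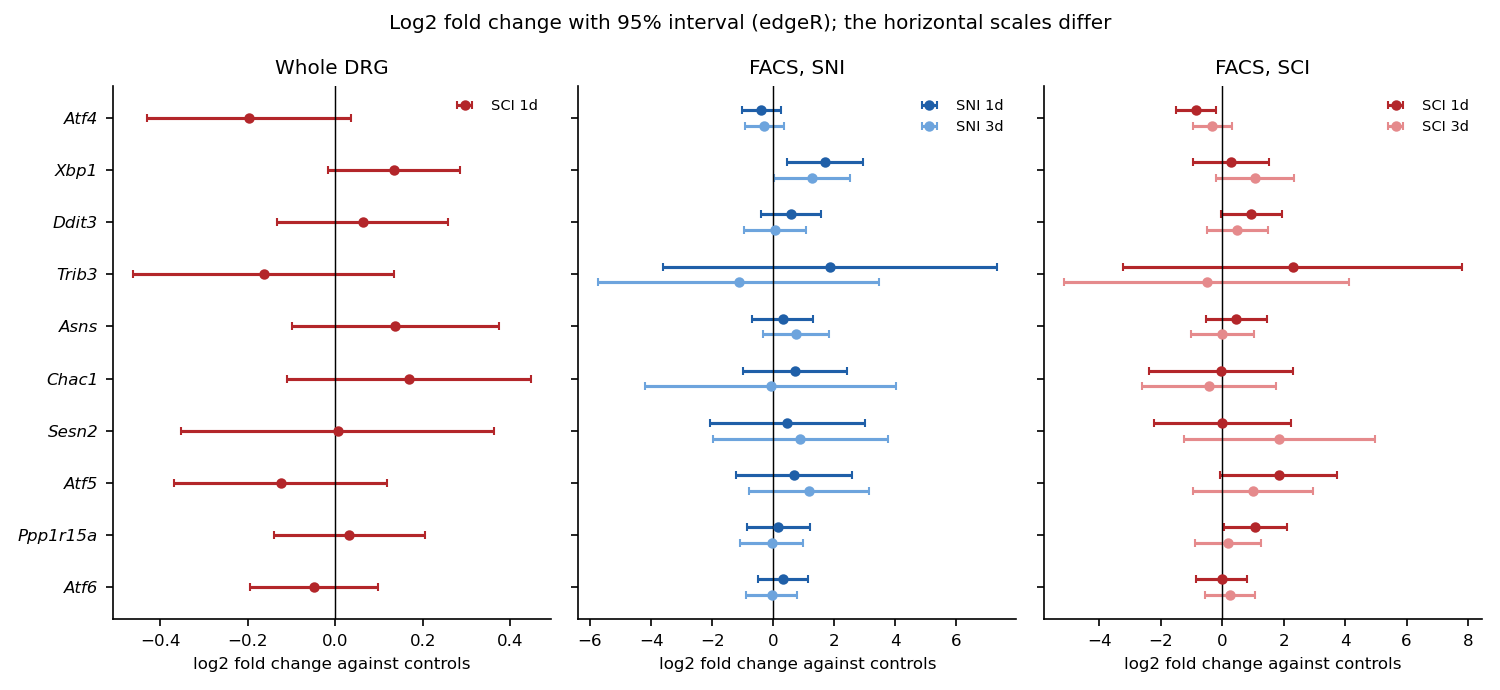
Log2 fold change on the x axis with its 95% interval for each of the 10 genes, with whole DRG and FACS on separate scales. Whole DRG intervals have a median width of 0.47 and FACS intervals of 2.25 to 2.57, and none of the 10 was called by edgeR with all wells in any comparison.

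The order of levels per kilobase in the sorted samples, glia-rich wells included, was led by Asns, with a median of 160.3 CPM per kb over 22 mice, followed by Atf4 (27.6) and Ddit3 (17.5). Ppp1r15a (9.50), Xbp1 (7.83) and Atf6 (2.96) lay in the middle, and Chac1 (1.77), Atf5 (0.892), Sesn2 (0.581) and Trib3 (0.0287) were lowest. The ranges of all neighbours in this order overlapped. Sorted cells and whole DRG were prepared with different kits, so their levels were not compared by a test.

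Glia-rich wells and the other wells carried different members of the pathway. Asns had a median of 466 CPM in the 46 other wells and 2.77 CPM in the 20 glia-rich wells, and in none of the 12 mice with both kinds was it higher in the glia-rich wells. Xbp1 had medians of 24.6 and 0.433 CPM (higher in glia-rich wells in 1 of 12 mice), and Atf6 of 33.9 and 0.356 CPM (2 of 12). Chac1 was at 2.93 CPM in the other wells and had no reads in 14 of the 20 glia-rich wells. Single glia-rich wells nevertheless reached 810 CPM of Asns, 231 CPM of Xbp1 and 59.1 CPM of Atf6. Of the 2 mice with glia-rich wells only, replicate 3 of SNI 3d had the highest Asns of all mice (652 CPM), replicate 3 of SCI 3d had 41.1 CPM, and each had the highest Xbp1 of its group. Sesn2 (1.92 and 0.0471 CPM) and Atf5 (1.497 and 0 CPM) had lower medians in glia-rich wells too, although the highest single well was glia-rich for both (104 CPM of Sesn2 and 33.0 CPM of Atf5, against 22.4 and 13.03 CPM in the other wells). Trib3 had no reads in all 20 glia-rich wells and in 26 of the 46 others. Ppp1r15a went the other way, with medians of 29.7 and 115 CPM and a higher level in glia-rich wells in 10 of 12 mice. Atf4 (62.7 and 89.0 CPM) and Ddit3 (30.04 and 58.5 CPM) were higher in glia-rich wells in 5 of 12 mice each. Wells of a mouse are not independent, so these are descriptions with no test. Early response genes such as Fos, which dissociation can induce, summed to 370 to 6633 CPM per FACS mouse, and their part was not tested.

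**Figure D4:**
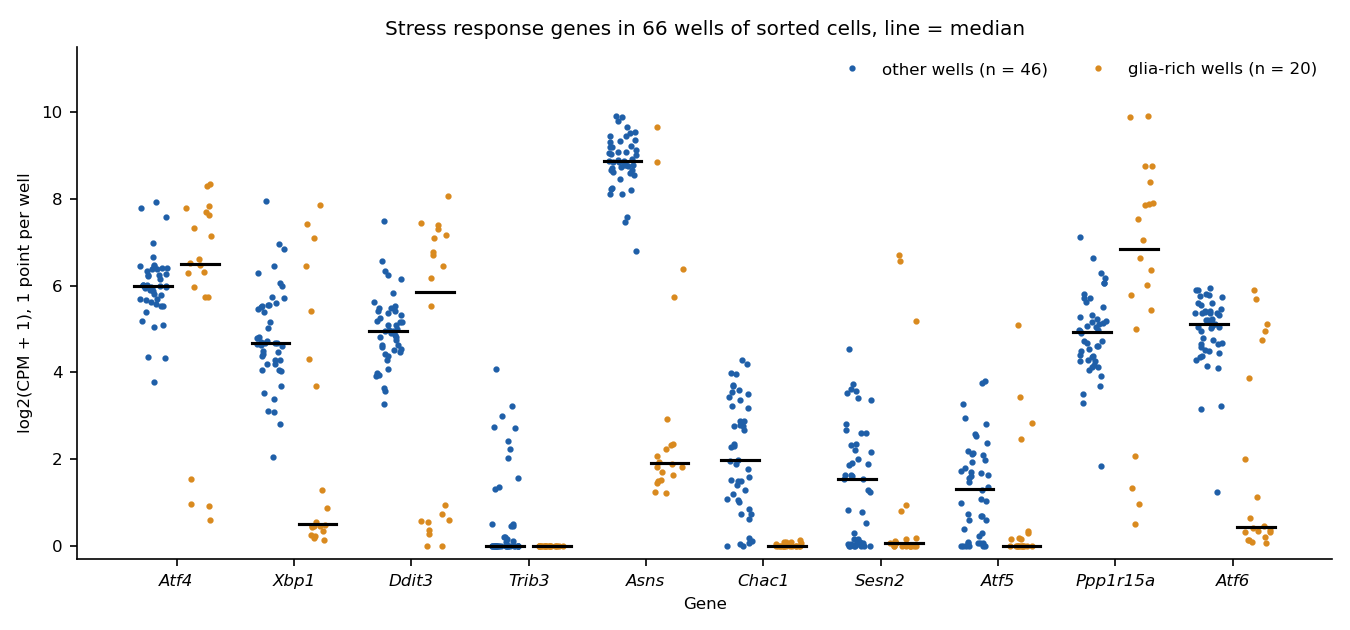
Level of the 10 genes as log2(CPM + 1) in each of the 66 wells, with the 46 other wells beside the 20 glia-rich wells and lines at the medians. The median of Asns is 466 CPM in the other wells and 2.77 CPM in the glia-rich wells, and that of Ppp1r15a is 29.7 and 115 CPM.

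In the pathway lists, all wells gave few calls in the sorted samples. Of 116 genes tested, 1 was called at SNI 1d (Atf3, log2 fold change 3.81, SE 0.66, adjusted p = 0.034) and 2 at SNI 3d, while none was called at SCI 1d, at SCI 3d or between SNI and SCI. The calls at SNI 3d were Atf3 (3.09, SE 0.64, adjusted p = 0.077) and Wars (1.01, SE 0.23, adjusted p = 0.080), which charges tryptophan to its tRNA. Wars ranged from 52.3 to 221 (median 164) CPM in naive mice, and SNI 3d mice were at 336, 219, 247 and 332 CPM, with the lowest SNI 3d mouse just under the highest naive mouse. Neither gene was called without the RUVr factors. DESeq2 called 5 list genes higher and 1 lower at SNI 1d, 6 and 5 at SNI 3d, 2 and 1 at SCI 1d and 4 and 1 at SCI 3d. In all these were 5.17%, 9.48%, 2.59% and 4.31% of the list genes, each below the share of all genes that DESeq2 called.

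Without the glia-rich wells, 20 of 115 list genes (17.4%) were called higher at SNI 1d and 15 (13.04%) at SNI 3d, and none was called lower. Over all genes, 8.17% were called at SNI 1d and 7.57% at SNI 3d, in either direction. At an unadjusted p under 0.05 the list gave 41 genes (35.7%, beside 22.8% of all genes) at SNI 1d and 28 (24.3%, beside 23.1%) at SNI 3d, so at SNI 3d the list was near the background at that p. The median log2 fold change of all genes in this setting was 0.40 at SNI 1d, 0.39 at SNI 3d, 0.38 at SCI 1d and 0.31 at SCI 3d, so values below are to be read against these. At SCI 1d and SCI 3d none of the 115 was called by edgeR, beside 0.217% and 0% of all genes. At an unadjusted p under 0.05 there were 19 (16.5%, beside 17.5% of all genes) and 10 (8.70%, beside 14.6%). When the RUVr factors were also left out, only Atf3 (3.63, SE 0.71, adjusted p = 0.059) and Slc1a4 (2.20, SE 0.45, adjusted p = 0.069) passed at SNI 1d and none at SNI 3d. Of the 10 genes, Xbp1 was the single call in these neuron-rich wells, with a log2 fold change of 1.87 at SNI 1d. Sesn2 (2.83, adjusted p = 0.18) and Atf6 (0.81, adjusted p = 0.14) came next.

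Neuron markers differed in the same wells. The sum of 5 nociceptor markers (most abundant Calca in naive mice) was 37.3 to 45648 (median 4225) CPM in naive mice, 78.3 to 9084 (median 508) CPM at SNI 1d and 113 to 338 (median 269) CPM at SNI 3d, with none of the 5 called and a median log2 fold change of -0.02 and -2.35. Of 4 markers of large-fibre neurons, Ntrk3, Ntrk2 and Spp1 were called higher at SNI 1d and Ntrk3 at SNI 3d, and their sum was 4.08 to 5805 CPM in naive mice, 1221 to 3346 CPM at SNI 1d and 1451 to 1846 CPM at SNI 3d. The general neuron markers Tubb3 and Stmn2 were called higher at SNI 3d, 2 of 9. Macrophage markers summed to 0.375 to 8.73 CPM in naive mice, 3.45 to 19.7 CPM at SNI 1d and 1.96 to 10.9 CPM at SNI 3d (8 genes, most abundant Lyz2), with none of the 5 tested called. The part of these markers in the calls of list genes was not tested.

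Among transporters, Slc1a4 (ENSMUSG00000020142.12, chr11:20302180-20332713, minus strand), which carries serine and alanine and whose promoter held the first element, stood out in the neuron-rich wells. It ranged from 10.9 to 37.3 (median 19.6) CPM in naive mice and was at 81.2, 53.6, 172 and 129 CPM at SNI 1d and 142, 83.8 and 71.8 CPM at SNI 3d, whose replicate 3 had no such wells. Every SNI mouse lay above every naive mouse, as 1.81% of all genes did at SNI 1d and 3.75% at SNI 3d in these wells. The log2 fold change was 2.24 (SE 0.42, adjusted p = 0.011) at SNI 1d and 2.15 (SE 0.45, adjusted p = 0.022) at SNI 3d, and with all wells it was 2.45 (SE 0.71, adjusted p = 0.14) and 2.08 (SE 0.70, adjusted p = 0.23). SCI 1d mice were at 13.6, 16.7, 10.4 and 29.4 CPM, below SNI 1d (2.63, SE 0.49, adjusted p = 0.037). Slc3a2, the heavy chain of amino acid exchangers, was the other transporter called at SNI 1d (0.76, adjusted p = 0.095).

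The tRNA synthetases gave 6 calls of 13 at SNI 1d and 4 at SNI 3d, the most of any list. Gars, for glycine, was at 119.7 ± 38.1 CPM (mean ± SD, n = 6) in naive mice and at 198 ± 36.7 CPM (n = 4) at SNI 1d. It rose by 0.76 on the log2 scale at SNI 1d and by 0.92 at SNI 3d. Yars, for tyrosine, rose by 0.79 and 0.80. Iars (0.66) and Nars (0.48), for isoleucine and asparagine, were called at SNI 1d, and Wars (0.96) and Aars (0.80), for tryptophan and alanine, at SNI 3d. With all wells the log2 fold changes were 0.81 for Gars, 0.78 for Yars, 0.80 for Iars and 0.39 for Nars at SNI 1d, and 1.01 for Wars and 1.42 for Aars at SNI 3d, and of these only Wars was called. The value of Nars is only a little above the median of all genes in that comparison. Median log2 fold changes of the list were 0.48 at SNI 1d, 0.80 at SNI 3d, 0.10 at SCI 1d and 0.31 at SCI 3d.

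Of the regulators downstream of ATF4 and CHOP, Pmaip1 was at 7.38 ± 9.66 CPM in naive mice, 97.6 ± 39.5 CPM at SNI 1d and 59.6 ± 33.4 CPM at SNI 3d. Its log2 fold change was 4.07 (adjusted p = 0.018) at SNI 1d and 3.29 (adjusted p = 0.055) at SNI 3d. With all wells it was 2.52 (SE 1.29, adjusted p = 0.37) and 2.63 (SE 1.49, adjusted p = 0.46). There naive replicate 6 had 696 CPM of Pmaip1, and the naive mean (122 CPM) lay above that of SNI 1d (74.6 CPM) and SNI 3d (39.9 CPM). Atf3 was at 101 ± 88.6 CPM in naive mice and 1251 ± 445 CPM at SNI 1d. Both genes were also called in whole DRG after SCI. Bbc3 (PUMA), another pro-apoptotic gene, was called at SNI 3d from levels of 0 to 0.101 CPM in naive mice and 0.291 to 1.01 CPM at SNI 3d. Its log2 fold change was 4.48 at SNI 3d and 4.23 at SCI 1d, where it was not called. The list gave 2 calls of 12 at SNI 1d and 3 at SNI 3d.

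ER chaperones gave 4 calls of 19 at SNI 1d and 2 at SNI 3d. Hspa5 (ENSMUSG00000026864.13, chr2:34771970-34777547, plus strand) was at 373 ± 101 CPM in naive mice and 546 ± 143 CPM at SNI 1d (log2 fold change 0.59, adjusted p = 0.073), and Calr, which fell in whole DRG after SCI, was at 211 ± 52.6 and 339 ± 110.5 CPM (0.73, adjusted p = 0.093). With all wells Hspa5 and Calr were at 0.33 and 0.36 at SNI 1d, neither called. At SNI 3d Hspa5 was at -0.23 in the neuron-rich wells, from 309.7 ± 67.9 CPM (n = 3), and was not called. P4hb, a disulphide isomerase, was called at both times (0.83 and 0.78), the oxidase Ero1lb at SNI 1d (1.71) and the chaperone Hyou1 at SNI 3d (2.14). At SCI 3d Hyou1 was at 1.66 in these wells and was not called. In ER-associated degradation, the ubiquitin ligase Syvn1 was called at 1.66 and 1.66 at the respective times. It ranged from 0.0504 to 13.5 (median 10.6) CPM in naive mice. SNI 1d mice spanned 7.56 to 24.6 CPM and SNI 3d mice 10.9 to 13.8 CPM, so both overlapped the naive range. Edem3, which trims mannose from misfolded glycoproteins, was called at 1.38 and 1.98. These were 2 of 15 genes at each time. At SCI 1d and SCI 3d Syvn1 was at 1.44 and 1.53 and Edem3 at 1.06 and 1.61 in these wells, none called. SNI 1d differed from SCI 1d by 0.22 for Syvn1 and 0.32 for Edem3, neither called. Edem3 was at 0.454 and 0.0866 CPM in naive replicates 5 and 6, which had 2 glia-rich wells of 3 each. Naive replicates 1 to 4 were at 15.1 to 22.9 CPM, and SNI 1d mice at 19.5, 20.9, 13.2 and 12.4 CPM. SNI 3d mice were at 24.3 to 26.5 CPM. Several of the called values depended on the wells and on the RUVr factors. With all wells Syvn1 was at -0.83 and -0.91, P4hb at -0.15 and -0.01, and Edem3 at 0.64 and 0.73 at the respective times, Ero1lb was at 0.65 and Hyou1 at 0.89, and none was called. In the neuron-rich wells without the RUVr factors, Syvn1 was at 0.81 and 0.68, Edem3 at 0.37 and 0.99, P4hb at 0.51 and 0.45, Ero1lb at 1.56 and Hyou1 at 1.33, again with no call.

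In the remaining lists, the amino acid sensing kinase Eif2ak4 (GCN2) was called at SNI 1d (3.25, adjusted p = 0.014) and SNI 3d (2.03, adjusted p = 0.092) from 3.46 ± 2.94 CPM in naive mice. At SCI 1d and SCI 3d it was at 2.10 and 1.75, neither called. Naive replicates 5 and 6, with 2 glia-rich wells of 3 each, had 0 CPM of it. In naive replicates 1 to 4 it was at 3.49 to 6.75 CPM, which overlapped SNI 1d (5.82 to 12.0 CPM) and SNI 3d (3.19 to 6.35 CPM). The list of Eif2ak4 gave 3 calls of 14 at SNI 1d, with Eif2b4 (0.75) and Eif2ak1 (0.99), and 2 at SNI 3d, with Ppp1r15b (1.18), the constitutive partner of the eIF2 phosphatase. Ppp1r15b was at 17.4 to 33.8 CPM at SNI 3d, inside its naive range of 0.606 to 60.6 CPM. Eif2ak1 was at 0.252 and 3.64 CPM in naive replicates 5 and 6 and at 18.0 to 36.3 CPM in naive replicates 1 to 4. At SNI 1d it was at 13.8 to 30.4 CPM, so it did not lie above those 4 naive mice. With all wells Eif2ak4 was at 1.43 and 1.02 and Ppp1r15b at -0.27, none of them called. In the neuron-rich wells without the RUVr factors Eif2ak4 was at 1.34 and 0.53, Ppp1r15b at 0.27 and Eif2ak1 at 0.46, none of them called either. Creb3 (0.62) was called at SNI 1d and the protease Mbtps2 (2.67) at SNI 3d, the latter at 0.28 with all wells and at 1.26 without the RUVr factors. Mbtps2 ranged from 0 to 18.2 (median 9.35) CPM in naive mice and from 8.93 to 37.4 CPM at SNI 3d. At SCI 3d Mbtps2 was at 1.66 in the neuron-rich wells and was not called. ER translocation and export and mitochondrial protein folding gave no call, with list medians of 0.17 and -0.06 at SNI 1d.

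**Figure D5:**
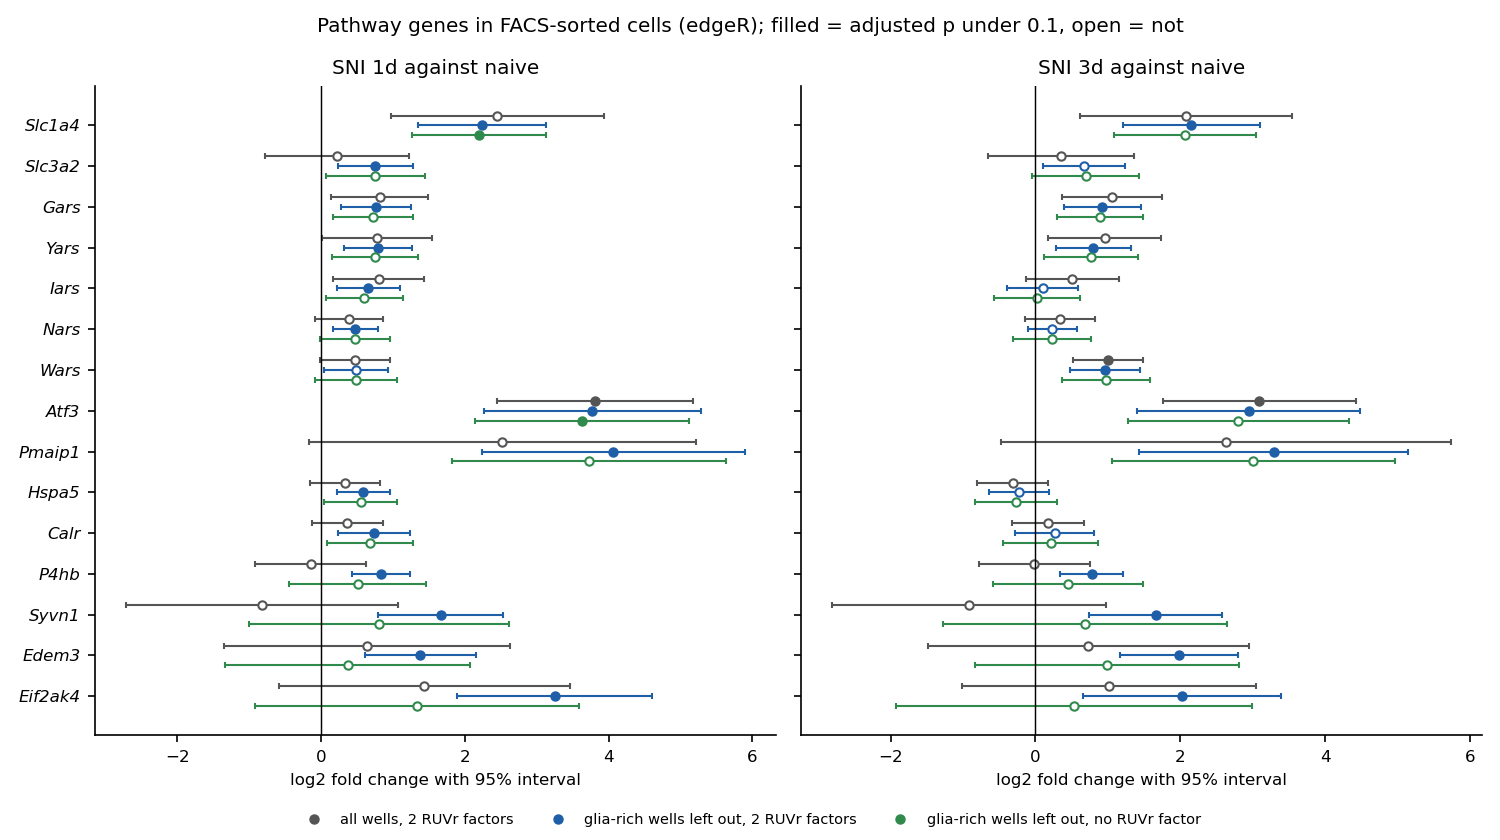
Log2 fold change with 95% interval of 15 pathway genes at SNI 1d and SNI 3d against naive in 3 fits (all wells, without glia-rich wells, and without glia-rich wells and RUVr factors), where filled points passed the threshold. The values of Slc1a4, Gars, Yars and Atf3 lie close together in the 3 fits, while Syvn1 lies below 0 with all wells.

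The difference between the injuries was tested directly. With all wells no list gene was called by edgeR between SNI and SCI at 1d or 3d, with 12 (10.3%) at an unadjusted p under 0.05 at each time, beside 10.2% and 8.47% of all genes. DESeq2 called 8 (6.90%) and 5 (4.31%), beside 4.81% and 4.21% of all genes. Without the glia-rich wells 4 of 115 list genes (3.48%) were higher at SNI 1d than at SCI 1d, beside 0.889% of all genes in either direction, and none of 115 was called at 3d (8 at an unadjusted p under 0.05, 6.96% beside 7.42% of all genes), beside 0%. These were Slc1a4, Iars, Hspa5 and Calr. Hspa5 was at 546 ± 143 CPM at SNI 1d and at 274 ± 28.6 CPM at SCI 1d (log2 difference 0.99, adjusted p = 0.045). Calr differed by 1.08 (adjusted p = 0.096) and Iars by 1.05 (adjusted p = 0.071). Without the RUVr factors none of the 4 passed, the nearest being Slc1a4 (adjusted p = 0.11). Of the 10 genes, Xbp1 (2.17, adjusted p = 0.16) and Atf4 (0.78, adjusted p = 0.24) came closest.

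The genes whose log2 CPM followed that of Atf4 most closely differed between the experiments. Over the 8 whole DRG libraries these were Ppid (r = 0.970), Echdc3 (0.968), Tmem33 (0.968), Tmem168 (0.966) and Lrrn3 (0.965), and 130 of 17615 genes had an r over 0.9. Over the 22 FACS mice they were Cryzl1 (0.889), Cat (0.883), Hfe (0.880), Npc2 (0.872) and Wnk1 (0.872), with none over 0.9. Of the 9 other genes of the set, Trib3 (0.517) and Asns (0.489) came nearest in whole DRG, where Sesn2 (-0.713) ran opposite to it, and Ppp1r15a (0.574) came nearest in FACS, where Chac1 (-0.659) and Asns (-0.395) ran opposite. Libraries share depth and makeup, and in FACS the share of glia-rich wells, so these values describe these samples only.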

How the data were processed

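RNA was sequenced from whole L4 DRG (8 libraries) and from sorted YFP+ cells (66 wells of 22 mice). Per the labels and the submitters' processing notes, the authors trimmed reads with cutadapt, aligned them to mm10 with STAR 2.5.3a and deposited raw counts per gene from HTSeq 0.6.1, which were used here as deposited. Version strings of other tools and the strand setting of the counting are not given in the sources used here. The 5 lines per file that name no gene were left out. The lines for reads on no gene and for ambiguous reads made up 7.71 to 32.5% of the reads on those lines and on genes. Tables with 123 per-sample normalized columns that match no sample, and with the authors' own log2 fold changes and p-values, were not used.

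The 10 genes and the pathway and marker lists were chosen with earlier results of these data known, so they support nothing independently. Wells were summed per mouse. Whole DRG genes needed a mean count of 10, FACS genes 20 reads in at least 1 mouse. Groups were compared by edgeR 4.0.16 quasi-likelihood tests (R 4.3.3) with Benjamini-Hochberg adjustment over all genes tested and a threshold of 0.1. The SE printed for edgeR is the log2 fold change divided by the square root of its F statistic, and intervals rest on it. The FACS fit held all 22 mice and 2 RUVr factors from centred residuals. RUVr factors can make p-values too small where unwanted variation also differs between groups, so FACS calls are also given without them. DESeq2 1.42.0 and limma 3.58.1 served as alternatives. The alternatives tried were other size factors, count filters, numbers of RUVr factors, residuals that were not centred, the sequencing set as a covariate, a replicate block, wells scaled singly, naive mice of the same day, wells without glia-rich ones, and each mouse left out in turn.

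CPM per mouse were scaled by TMM and CPM per well by the well's own total. From each list the text names up to 4 called genes per direction with the smallest p, and up to 2 uncalled genes for a list with no call. Genes most like Atf4 are the 5 with the highest Pearson correlation of log2 CPM (prior count 2). Replicate numbers were not used to pair the samples in the main fits. Gene positions are from GENCODE vM21 (GRCm38), which held 53274 of the 53379 gene IDs, and promoter windows from RefSeq.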

Additional observations from a re-analysis of the deposited data

Results flagged for a closer look

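A single mouse stood apart from its group in 14 of 70 groups tested by Dixon's gap test over the 10 genes, of which chance flags about 1 in 20. The 2 mice with glia-rich wells only account for 6 of them. Replicate 3 of SCI 3d was high for Ppp1r15a (813 CPM, nearest mouse 25.8), Ddit3 (153, nearest 30.2) and Sesn2 (107, nearest 3.40). Replicate 3 of SNI 3d was high for Ppp1r15a (513 CPM, nearest 26.9), Ddit3 (161, nearest 24.9) and Atf4 (199.9 CPM, nearest 73.7). Replicate 3 of SCI 3d also had 45410 CPM of fibroblast markers and 3614 CPM of macrophage markers, whose part was not tested. Naive replicate 6, with 2 glia-rich wells of 3, was low for Asns (77.9 CPM, nearest 344) and Atf6 (12.1, nearest 26.5). Replicate 3 of SNI 1d was high for Atf4 (136 CPM, nearest 62.2) and Trib3 (3.40, nearest 0.0404), and replicate 3 of SCI 1d for Trib3 (4.99, nearest 0.191). Replicate 4 of SNI 1d, which had no glia-rich well, was high for Sesn2 (6.81 CPM, nearest 1.79) and Atf5 (4.63, nearest 1.14). In whole DRG, uninjured replicate 1 was low for Chac1 (5.29 CPM, nearest 6.11). The part of the glia-rich wells in these values was not tested further.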

How the results depend on the processing

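Over all alternatives, 152 counts of called members were recomputed and 3 moved, each from 0 to 1. DESeq2 gave 1 at SNI 1d (Xbp1, log2 fold change 1.65, adjusted p = 0.068) and 1 at SCI 1d (Atf4, -0.88, adjusted p = 0.096), and leaving out glia-rich wells gave 1 at SNI 1d (Xbp1, 1.87, adjusted p = 0.064). The cause was not tested. Leaving out each mouse in turn gave 0 in every comparison. With the replicate block 0 members were called in all comparisons, and in whole DRG 127 genes were called with the block and 408 without it. The main fits treated same-numbered mice as unpaired. In whole DRG, correlations of deviations were -0.158 to 0.257 (median 0.01) for same-numbered mice and -0.313 to 0.306 (median -0.02) for others. FACS mice of the same set and number had -0.0267 to 0.419 (median 0.10). Other FACS pairs, which include pairs across sets, had -0.338 to 0.266 (median -0.04). In FACS, same-numbered mice of a set thus tended to vary together.

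Of 1450 recomputed log2 fold changes of members, 1346 moved by less than the spread between replicates, 101 moved by more, 3 passed the threshold and no called value changed sign, though 42 of the 70 uncalled values changed sign under some alternative. Counts over all genes depended on the tool and on single mice. Leaving out 1 mouse gave 104 (without uninjured replicate 3) to 640 (without SCI 1d replicate 3) calls in whole DRG against 408, 30 (without SNI 1d replicate 3) to 177 at SNI 1d against 161, and 9 (without SNI 3d replicate 4) to 896 (without naive replicate 6) at SNI 3d against 166. It gave 1 to 4 at SCI 1d, 0 to 12 at SCI 3d, and 0 to 1 and 0 to 4 in SNI against SCI at 1d and 3d, so the shares of all genes called are not fixed backgrounds. Whole DRG gave 929 calls with DESeq2. FACS gave 161, 166, 4, 0, 0 and 0 calls with 2 RUVr factors, 0, 0, 1, 0, 0 and 0 without, and 1539, 2250, 1223, 1202, 1109 and 989 with DESeq2 and the same factors, given for naive against SNI 1d, SNI 3d, SCI 1d, SCI 3d in turn and then for SNI against SCI at 1d and 3d. In the same order, calls numbered 144, 57, 22, 12, 0 and 0 with no count filter, 328, 139, 9, 0, 0 and 0 with a mean count of at least 10, and 194, 130, 10, 0, 0 and 0 with DESeq2 size factors in edgeR. They numbered 10, 0, 1, 0, 2 and 0 with 1 RUVr factor, 1, 2, 1, 0, 1 and 0 with residuals that were not centred, 0, 0, 1, 0, 0 and 0 with the set as a covariate, 1, 0, 2, 0, 0 and 0 with the block and 6, 27, 2, 0, 4 and 4 with wells scaled singly. Naive mice of the same day only gave 55, 193, 2 and 0 against naive. Without glia-rich wells 201 genes were called at SNI 1d against SCI 1d, and 39, 14, 0, 0, 0 and 0 when RUVr was also left out. FACS intervals with a median width above 2 on the log2 scale limit what could be seen in the sorted samples.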
